A study of Mus musculus with 4 samples.

Results

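The genes described here are the Wnt ligands with their receptors, secreted antagonists and pathway regulators: 46 genes on 96 spots, of 14386 genes on 32064 named spots. They were chosen by the gene symbol in the platform's annotation, which uses no measured value, although the set was proposed with earlier results of these data known. The set holds 17 Wnt ligands, 11 receptors (Fzd1 to Fzd9, Lrp5 and Lrp6), 7 secreted antagonists of the Dkk, Sfrp and Wif families, the ligand-modifying enzyme Porcn, 7 intracellular regulators (Axin1, Axin2, Dvl1, Dvl2, Dvl3, Nkd1, Nkd2) and the transcription factors Sp5, Tcf7l1 and Tcf7l2. Tcf7, Dkk4, Fzd10 and Wnt9a also match the symbols, but no spot carried any of them as its only symbol, so they were not analysed here. Embryoid bodies, which are aggregates of differentiating stem cells, had been grown in hanging drops from CGR8, a mouse embryonic stem cell line that is kept without feeder cells. RNA of day 10 and of day 3 embryoid bodies was each hybridised together with day 0 RNA, labelled undifferentiated, on spotted arrays with 2 channels, and the labels give no genotype change or treatment for any group. Each day has 2 arrays, the second labelled a technical replicate, so each group is 1 RNA pair, the SDs below cover technical error alone, and no p-value can be given. Which channel was divided by which, and its dye, is unknown here, so "positive side" and "negative side" give the deposited sign and do not say which day had more RNA.

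Wnt proteins are secreted, lipid-modified signals that bind Frizzled receptors together with the co-receptors Lrp5 or Lrp6. Binding recruits Dishevelled (Dvl) proteins and Axin to the membrane, which stops the Axin complex from marking beta-catenin for degradation, and beta-catenin then acts with Tcf and Lef factors in the nucleus. In the mouse embryo this signalling is required for the primitive streak and mesoderm, and in stem cells it supports self-renewal. Embryoid bodies mix many cell types, and in their total RNA fewer cells of a type and less RNA per cell cannot be told apart.

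Values are log2 ratios of the channels, centred on each array's median and averaged over the spots of a gene. The members' spots carried a value less often on the day 10 arrays than on the day 3 arrays: 28.1% and 14.6% of the 96 spots had none on the day 10 arrays, against 10.4% and 6.25% on the day 3 arrays. Over all named spots those shares were 18.2% and 12.5% at day 10 and 11.9% and 9.02% at day 3. As a result 39 members had a value on both arrays at day 10 and all 46 did at day 3. The technical arrays correlated across these members at Pearson r = 0.26 at day 10 (39 genes) and 0.26 at day 3 (46 genes), close to the 0.22 and 0.27 across all genes. Genes are not independent replicates, and these correlations are descriptions. Of 4 markers of undifferentiated cells used to check the labels, Pou5f1 had -0.69 and -2.09 at day 10 and -0.79 and -1.002 at day 3, and Zfp42 had -0.68 and -0.43 at day 10 and -0.77 and -0.79 at day 3. Nanog had 0.15 and -0.59 at day 10 and -0.74 and -0.22 at day 3, and Dppa5a 0.41 and -2.85 at day 10 and -2.74 and -2.69 at day 3. All 4 were negative on both day 3 arrays, while Nanog and Dppa5a were split between the day 10 arrays. Of the other 5 markers on that list, Fgf4, a growth factor of undifferentiated cells, lay on the positive side at day 10, with 1.51 and 0.99, and had -0.48 and -0.22 at day 3.

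Few Wnt pathway genes lay beyond the limit used here, which was at or beyond 1 on the log2 scale (2-fold) on one side on both arrays. At day 10, 2 of 39 members passed it, the Frizzled receptors Fzd2 and Fzd9, both on the positive side, where 3.54% of all 13199 genes measured were called (2.15% positive). At day 3, 1 of 46 members passed it, the ligand Wnt7a, on the positive side, against 2.8% of 13707 genes (1.77% positive). These shares, 5.13% and 2.17% of the members, are counts of 2 genes and 1 gene and lie near those over all genes. No member was called on the negative side at either day (1.39% of all genes at day 10 and 1.03% at day 3), and none was beyond 2-fold on opposite sides of the technical arrays (1.48% and 0.744% of all genes). Both arrays had the same sign in 22 of 39 members (56.4%) at day 10 and in 30 of 46 (65.2%) at day 3, against 60.8% and 64.7% of all genes. The median of the members was 0.13 at day 10 and 0.20 at day 3, beside -0.01 and 0.01 over all genes. The day 10 median was 0.02 without the second day 10 array and -0.03 over the 15 members measured in the upper 50% of genes by brightness. The day 3 median was -0.0018 without the first day 3 array and -0.14 over the 16 such members. The day 10 calls changed when each gene kept its best-agreeing spot, or spots measured on all 4 arrays alone. They were then Fzd9 on the positive side and Dkk3 and Wnt10b on the negative. Fzd2 dropped out because no spot of it had a value on both day 10 arrays. Keeping the best-agreeing spot favours calls, and the share of all genes was not counted for either choice. On the first day 10 array alone, 8 of 40 members lay beyond 2-fold (5 positive, 3 negative), against 20.4% of all genes, and on the second 8 of 45 (4 positive, 4 negative), against 16.2%. On the first day 3 array alone 10 of 46 did (8 positive, 2 negative), against 14.4% of all genes, and on the second 3 of 46 (all positive), against 12.8%.

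**Figure D1:**
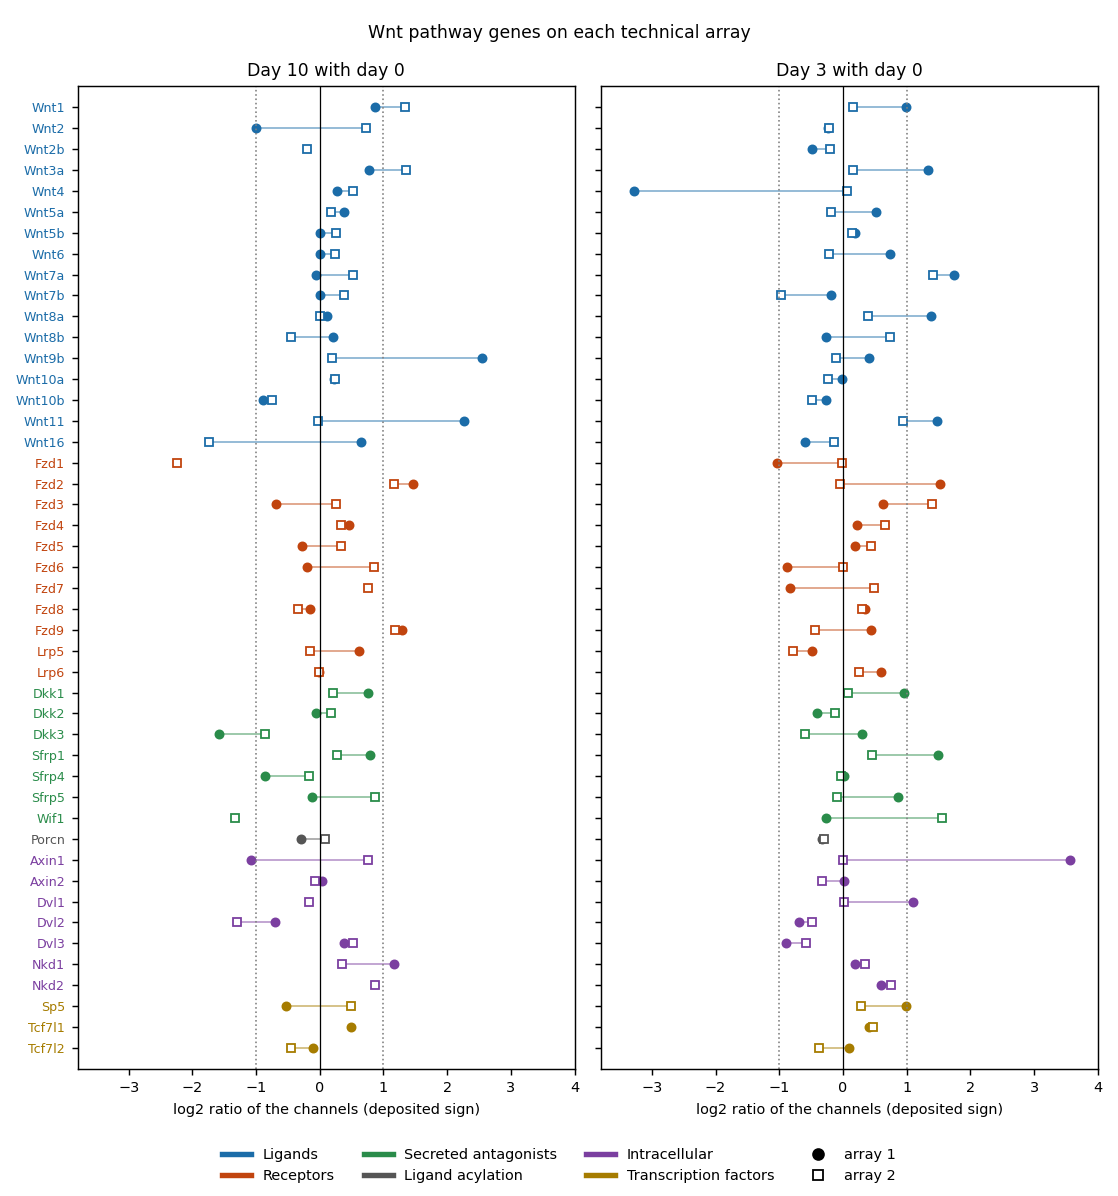
Log2 ratio of each Wnt pathway gene (rows, coloured by role) on the technical arrays of day 10 with day 0 (left) and day 3 with day 0 (right); filled circles are array 1, open squares array 2, and dotted lines mark 2-fold. Fzd2 and Fzd9 lie beyond the line on both arrays at day 10 and Wnt7a at day 3, while Axin1 and Wnt4 at day 3 and Wnt9b and Wnt11 at day 10 are far out on array 1 alone.

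The promoters of Wnt7a and Fzd9, both called, are shown with those of Axin2 and Sp5, which are textbook transcriptional targets of the pathway, so that the stretches before the start sites can be compared. RefSeq promoters (GRCm38.p6) matched 31 of the 46 members with 35 start sites. Each line gives the 250 bases before an annotated start, 5' to 3' on the strand of the gene, and capitals mark the Tcf/Lef core motif, searched as CTTTGAA or CTTTGAT on both strands, where matches on opposite strands can overlap by their last bases. Wnt7a lies at chr6:91411354-91411603 (minus strand), Fzd9 at chr5:135251048-135251297 (minus strand), Axin2 at chr11:108920099-108920348 (plus strand) and Sp5 at chr2:70474673-70474922 (plus strand).
Wnt7a: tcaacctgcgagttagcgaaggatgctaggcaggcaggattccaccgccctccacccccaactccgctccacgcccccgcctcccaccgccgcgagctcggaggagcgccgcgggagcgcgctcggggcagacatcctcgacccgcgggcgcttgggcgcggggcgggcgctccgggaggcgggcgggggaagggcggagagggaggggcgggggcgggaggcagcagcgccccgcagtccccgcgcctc
Fzd9: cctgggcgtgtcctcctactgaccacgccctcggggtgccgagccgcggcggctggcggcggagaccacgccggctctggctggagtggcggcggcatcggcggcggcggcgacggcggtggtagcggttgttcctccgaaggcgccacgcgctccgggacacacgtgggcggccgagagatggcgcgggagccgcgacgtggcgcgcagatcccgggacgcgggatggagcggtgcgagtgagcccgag
Axin2: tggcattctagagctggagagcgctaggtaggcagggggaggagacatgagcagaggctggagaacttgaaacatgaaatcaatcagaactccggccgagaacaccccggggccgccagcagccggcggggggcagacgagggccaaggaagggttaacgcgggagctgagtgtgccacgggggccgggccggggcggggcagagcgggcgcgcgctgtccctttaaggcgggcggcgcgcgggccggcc
Sp5: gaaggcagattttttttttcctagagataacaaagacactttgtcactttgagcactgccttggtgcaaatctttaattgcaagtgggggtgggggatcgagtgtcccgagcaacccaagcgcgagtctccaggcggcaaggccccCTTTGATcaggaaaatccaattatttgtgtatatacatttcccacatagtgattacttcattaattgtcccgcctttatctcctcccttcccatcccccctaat
Of these, the Sp5 stretch holds 1 motif, with its first base at position -104 from the start. Among all 35 member promoters, 4 (11.4%) held a motif, those of Sp5, Dkk1, Wnt11 and Wnt5b, against 7.48% of all 32851 promoters of this length. CpG dinucleotides were counted as well: Fzd9 has 42, Wnt7a 34, Axin2 24 and Sp5 6, the median of the member promoters is 21 and that of all promoters 6. A match is a description of letters, not a binding site, and no match says only that those letters are not in this window.

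Among the ligands, Wnt7a was the gene beyond 2-fold on both day 3 arrays. Wnt7a, which patterns the dorsal limb and acts in the nervous system, read -0.09 and -0.04 on the spots of the first day 10 array and 0.03 and 1.02 on those of the second. At day 3 its spots read 1.49 and 2.01 on the first array and 1.42 and 1.41 on the second. All 4 day 3 readings thus lay above all 4 day 10 readings. The gene means were 0.23 ± 0.42 at day 10 and 1.58 ± 0.24 at day 3 (here and below, means with the SD of the 2 technical arrays), and its brightness was at the 91.2 percentile of all genes. Brightness was read from the smallest pair of whole numbers that yields a deposited ratio. Between 59.3% and 61.9% of the values on each array were ratios of whole numbers up to 10000, and for these it is a lower bound on the signal. The remaining values count as bright whatever their signal was. A high percentile, such as that of Wnt7a, therefore need not mean a strong signal.

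Wnt11, a ligand known for gastrulation movements and heart formation, also read positive on every day 3 spot. It had 2.26 and -0.02 at day 10 and 1.47 and 0.95 at day 3. The day 3 values lay on both sides of the limit, and the day 10 arrays differed by more than 2 log2 units. Wnt9b, a ligand of kidney development, had 2.55 and 0.19 at day 10 and 0.40 and -0.11 at day 3, so its day 10 mean of 1.37 rested on the first array. Wnt4, which acts in kidney and gonad, had 0.28 and 0.52 at day 10 and -3.29 and 0.06 at day 3. The 0.28 averaged spots of -1.69 and 2.25, and the 0.52 came from 1 spot. The -3.29 also came from 1 spot, and the other day 3 readings of Wnt4 were 0.42 and -0.30. Wnt16, a ligand of bone and joint, had 0.65 and -1.74 at day 10 and -0.60 and -0.14 at day 3.

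Wnt1 and Wnt3a, which act in the midbrain and in the tail bud mesoderm, were positive on all 4 arrays. Wnt1 had 0.86 and 1.33 at day 10 and 0.995 and 0.15 at day 3. Wnt3a had 0.78 and 1.36 at day 10 and 1.33 and 0.16 at day 3. Neither passed the limit at either day, and single spots of both read near 0. Wnt10b, a ligand studied in fat and bone, lay on the other side, with -0.89 and -0.76 at day 10 and -0.27 and -0.49 at day 3. Wnt10b and Wnt1 are neighbours in the mouse gene table, with no protein-coding gene between them, and they were on opposite sides on every array. Wnt6 and Wnt10a are the other such pair: Wnt6 had 0.12 ± 0.16 at day 10 and 0.26 ± 0.68 at day 3, and Wnt10a 0.23 ± 0.01 and -0.13 ± 0.16. The small SDs of Wnt10a hide opposite spots. On the first arrays its spots read -0.95 and 1.39 at day 10 and 0.71 and -0.74 at day 3.

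None of the remaining ligands was called. Wnt8a, an early mesoderm ligand in the embryo, had 0.12 and -0.00 at day 10 and 1.38 and 0.38 at day 3, and was among the dimmest genes, at the 1.06 percentile. Wnt7b had 0.01 and 0.38 at day 10 and -0.19 and -0.98 at day 3. Wnt5a and Wnt5b, ligands known mainly for beta-catenin-independent signalling, had means of 0.27 ± 0.14 and 0.13 ± 0.18 at day 10 and 0.17 ± 0.50 and 0.17 ± 0.04 at day 3. Wnt2 was at -0.14 ± 1.23 at day 10 and -0.23 ± 0.00 at day 3, and Wnt8b at -0.13 ± 0.46 and 0.23 ± 0.72. Wnt2b had a value on 1 day 10 array, -0.20, and -0.35 ± 0.20 at day 3. Of the 16 ligands measured on both day 10 arrays, 8 were positive on both, 1 was negative on both and 7 were split. At day 3, 6 of 17 were positive on both arrays, 6 negative and 5 split. The ligand medians were 0.21 and 0.17.

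**Figure D2:**
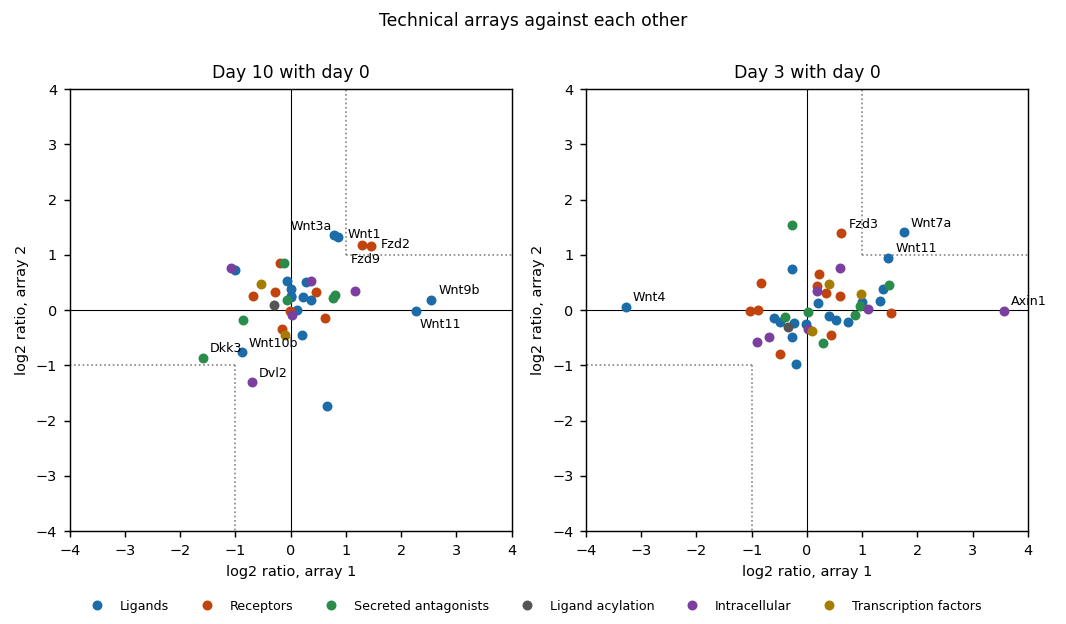
Log2 ratio on array 1 (x axis) against array 2 (y axis) for each Wnt pathway gene with both values, at day 10 (left, 39 genes) and day 3 (right, 46 genes); dotted corners enclose genes beyond 2-fold on both arrays. Fzd2 and Fzd9 fall in the upper corner at day 10 and Wnt7a at day 3, and the lower corners are empty.

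Of the receptors, the called genes Fzd2 and Fzd9 rested on few readings. Fzd2 read 1.46 on 1 spot of the first day 10 array and 1.16 on the other spot of the second, so no spot of it was measured on both. At day 3 Fzd2 read -0.38 and 3.42 on the first array and -0.04 and -0.07 on the second, which puts 3 of 4 day 3 readings below 0. Fzd9, a Frizzled of the developing nervous system, read 1.29 on the first day 10 array and 1.44 and 0.90 on the second. At day 3 it read 0.44 on the first array and -1.46 and 0.58 on the second. The means were 1.31 ± 0.21 for Fzd2 and 1.23 ± 0.08 for Fzd9 at day 10, and 0.73 ± 1.11 and 0.00 ± 0.62 at day 3. Both genes were dim, at brightness percentiles 25.7 and 16.2, and none of the 15 members measured at day 10 in the upper 50% of genes was called.

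Fzd3, a receptor of axon guidance, had -0.68 and 0.25 on the day 10 arrays, from 1 spot. At day 3 its spots read 0.75 and 0.49 on the first array and 1.37 and 1.41 on the second, so the days did not overlap. Fzd4, the receptor for Norrin in retinal vessels as well as for Wnts, was positive on every spot of every array, with 0.46 and 0.33 at day 10 and 0.21 and 0.66 at day 3. Its ratios were small on all arrays and close together. Fzd8 had -0.16 and -0.35 at day 10 and 0.34 and 0.31 at day 3, with array differences below 0.2 at both days. Fzd1 was not measured on the first day 10 array and read -2.34 and -2.13 on the spots of the second. Its day 3 arrays had -1.04 and -0.01.

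The co-receptors Lrp5 and Lrp6 lay on different sides at day 3. Lrp5 had 0.62 and -0.15 at day 10 and -0.49 and -0.79 at day 3, where all 4 of its readings were negative. Lrp6 had -0.01 and -0.01 at day 10 and 0.59 and 0.25 at day 3, where all 4 readings were positive. Its recovered brightness was at the 97.7 percentile. The other receptors were Fzd5 at 0.02 ± 0.43 and 0.31 ± 0.18 at day 10 and day 3, Fzd6 at 0.33 ± 0.75 and -0.44 ± 0.63, and Fzd7 with 0.76 on the 1 day 10 array that measured it and -0.17 ± 0.94 at day 3. The receptor medians were 0.23 over 9 genes at day 10 and 0.31 over 11 at day 3. At day 10, 3 receptors were positive on both arrays, 2 negative and 4 split, and at day 3 these numbers were 5, 2 and 4.

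Secreted antagonists bind Wnt ligands (Sfrp and Wif1) or the Lrp co-receptors (Dkk1, Dkk2), and none of them passed the limit with spots averaged (Dkk3 did at day 10 on its best-agreeing spot). Dkk3, a divergent member of its family, read -2.09 and -1.09 on the first day 10 array and -0.46 and -1.27 on the second. Its arrays gave -1.59 and -0.86 at day 10 and 0.30 and -0.59 at day 3, so all day 10 readings were negative while day 3 was split. Sfrp4 had -0.86 and -0.17 at day 10 and 0.01 and -0.04 at day 3. Sfrp1 was positive on every reading of both days, but its spots were annotated to 2 sequence records and their readings differed. The first pair of Sfrp1 spots read 1.94 and 0.52 at day 10, and 0.84, 4.58 and 1.10 at day 3. The second pair read between 0.03 and 0.28 at day 10 and between 0.14 and 0.29 at day 3. The averages of 0.54 ± 0.37 and 0.98 ± 0.73 lie between those of the pairs.

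Dkk1, an inhibitor that binds Lrp6 and shapes the head, had 0.76 and 0.21 at day 10 and 0.95 and 0.08 at day 3. Its spots read from -0.87 to 1.30 at day 10, more than the arrays' means show. Dkk2 had -0.07 and 0.18 at day 10 and -0.40 and -0.12 at day 3. Its recovered brightness ranked highest of the members, at the 99.7 percentile, but such high ranks do not order genes by signal. Wif1 was the dimmest, at the 0.709 percentile, with -1.34 on 1 day 10 array and -0.27 and 1.55 at day 3. Sfrp5 was at 0.37 ± 0.69 at day 10 and 0.39 ± 0.68 at day 3. Porcn, the enzyme that attaches the lipid Wnts need for secretion, had -0.30 and 0.09 at day 10 and -0.34 and -0.30 at day 3. The antagonist medians were 0.21 over 6 genes at day 10 and 0.39 over 7 at day 3.

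Among the intracellular regulators the 3 Dishevelled genes, which relay the signal from the receptors, differed from each other. Dvl2 was negative on every reading: its spots read -0.54 and -0.88 on the first day 10 array and -1.43 and -1.18 on the second, and -0.70 and -0.69 on the first day 3 array and -0.57 and -0.40 on the second. Its means were -1.01 ± 0.42 at day 10 and -0.59 ± 0.15 at day 3, and its brightness was at the 93.7 percentile. It was not called, since the first day 10 array averaged -0.71. Dvl3 had 0.37 and 0.52 at day 10 and -0.90 and -0.58 at day 3, with the days on opposite sides on all arrays. Within the first day 10 array the Dvl3 spots read 1.47 and -0.72, so that array's value is the average of opposite readings. Dvl1 had -0.18 on the 1 day 10 array that measured it and 1.11 and 0.02 at day 3.

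Axin1, the scaffold of the beta-catenin degradation complex, had the day 3 mean farthest from 0 of all members, 1.78 ± 2.53, but this came from 1 spot. Its readings were 3.56 on the first day 3 array and -0.21 and 0.19 on the second, and its day 10 arrays had -1.08 and 0.76. Axin2, the feedback gene of the pathway, was near 0 on each array, with 0.03 and -0.08 at day 10 and 0.01 and -0.33 at day 3. Its 2 spots on the first day 10 array read -1.49 and 1.55, so the small mean there hides 2 large readings. Nkd1 and Nkd2, which bind Dishevelled and dampen the pathway, were positive on every array that measured them. Nkd1 had 1.16 and 0.35 at day 10 and 0.18 and 0.35 at day 3. Nkd2 had 0.86 on 1 day 10 array and 0.60 and 0.76 at day 3. The intracellular medians were -0.03 over 5 genes at day 10 and 0.27 over 7 at day 3.

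Of the transcription factors, Sp5 had -0.53 and 0.48 at day 10 and 0.99 and 0.29 at day 3. Its first day 3 array thus lay just below the limit, and its day 10 arrays had opposite signs. Tcf7l1, the Tcf factor known as a repressor of pluripotency genes in stem cells, had 0.49 on 1 day 10 array and 0.41 and 0.48 at day 3. Tcf7l2 stood on 4 spots annotated to 2 sequence records and had -0.11 and -0.45 at day 10 and 0.10 and -0.38 at day 3. Its single readings ran from -1.47 to 0.71 at day 10 and from -1.21 to 0.29 at day 3.

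**Figure D3:**
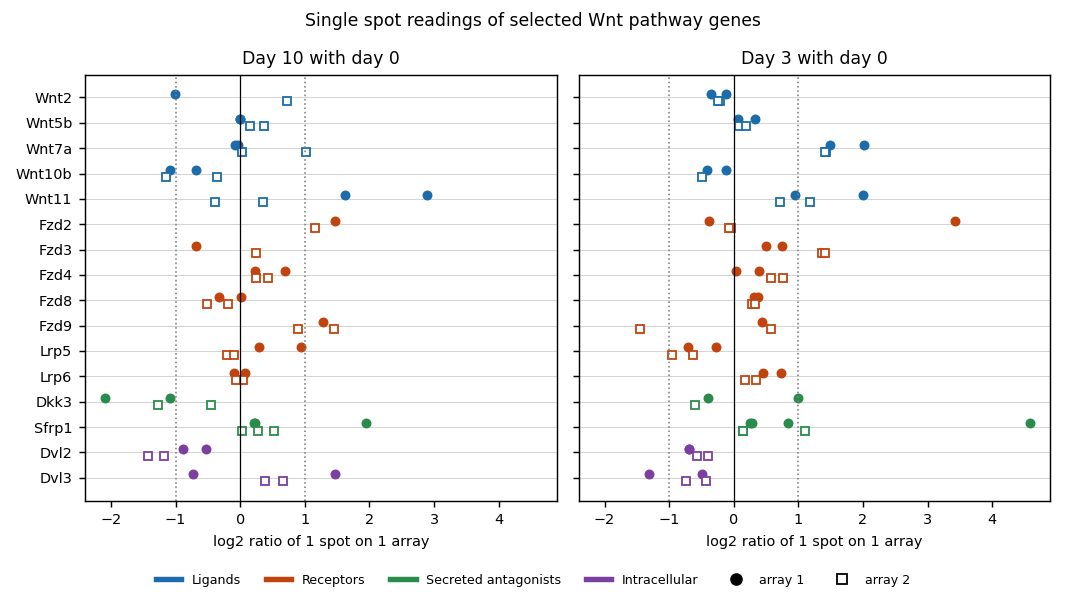
Log2 ratio of every spot on every array for the 16 genes that were called or had all of 4 or more readings of a day on one side of 0, with day 10 on the left and day 3 on the right; filled circles are array 1, open squares array 2, and dotted lines mark 2-fold. The 4 day 3 readings of Wnt7a lie between 1.41 and 2.01, all Dvl2 readings are negative at both days, and single readings such as 4.58 for Sfrp1 and 3.42 for Fzd2 stand apart.

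Most genes were spotted as neighbouring duplicates, and single spots tell how far a gene's readings hold together. This count was chosen after the data were examined. At day 10, 5 of 24 members with at least 4 readings had all of them on one side of 0: Fzd4 and Sfrp1 on the positive side, and Dkk3, Dvl2 and Wnt10b on the negative. Over all genes the share was 32.5% (13.5% positive, 19% negative). At day 3, 12 of 31 did so, against 37.2% of all genes (17.6% positive, 19.6% negative). Positive were Fzd3, Fzd4, Fzd8, Lrp6, Sfrp1, Wnt5b, Wnt7a and Wnt11, and negative Dvl2, Dvl3, Lrp5 and Wnt2. Dvl2, Fzd4 and Sfrp1 kept their side at both days. Day 0 RNA was the partner at both days, though the labels do not say that it was a single preparation. Duplicate spots of the members differed by a median of 0.59 and 0.32 (log2) at day 10 and 0.43 and 0.29 at day 3, against 0.54, 0.42, 0.35 and 0.33 for duplicates of all genes. Pearson r between these duplicates was -0.05 and 0.48 at day 10 and 0.36 and 0.41 at day 3. Over all genes it was 0.23 and 0.32 at day 10 and 0.28 and 0.35 at day 3.

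Brightness moved with this agreement. The median SD between technical arrays was 0.18 at day 10 and 0.21 at day 3 for members in the upper 50% of all genes, and 0.45 and 0.61 for those in the lower. The members as a set were rather dim, with a median at the 39.6 percentile and 16 of 46 in the upper 50%. Sides differed with brightness as well: in the upper 50%, 6 members were above 0 and 9 below at day 10 and 6 above and 10 below at day 3, while in the lower 50%, 18 were above and 6 below at day 10 and 21 above and 9 below at day 3. The part of brightness in the members' positive medians was not tested.

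**Figure D4:**
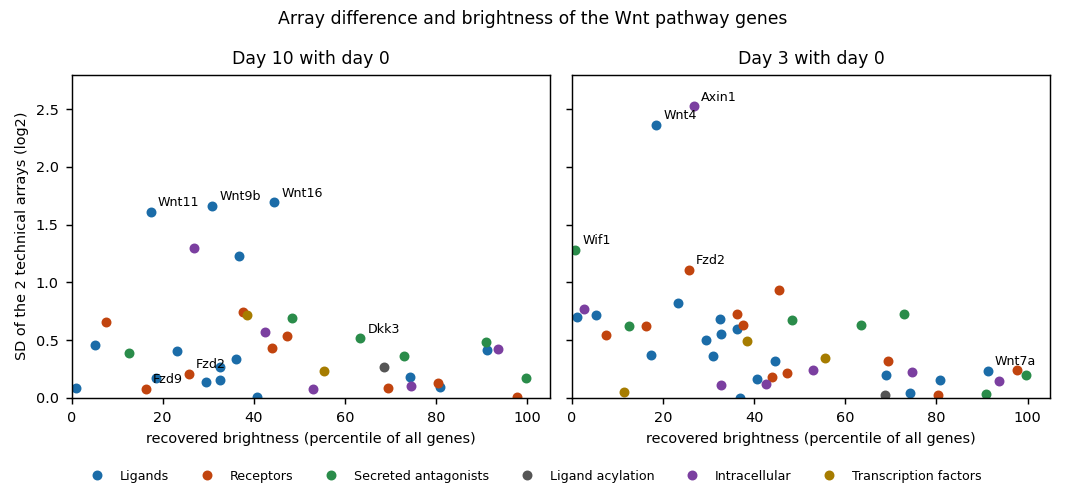
SD of the technical arrays (y axis, log2) against recovered brightness as a percentile of all genes (x axis) for each Wnt pathway gene at day 10 (left) and day 3 (right). SDs above 1 occur at day 10 for Wnt16, Wnt9b, Wnt11, Axin1 and Wnt2 and at day 3 for Axin1, Wnt4, Wif1 and Fzd2, all in the lower 50% by brightness.

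The comparison of day 10 with day 3 runs through the day 0 RNA as a shared partner; the labels do not say that it was 1 preparation. No member lay beyond 2-fold in each of the 4 possible subtractions (0 of 39), where 3.54% of 12654 genes did (1.82% positive, 1.72% negative). Without the first day 10 array 4 of 45 members passed, against 11.9% of all genes, and without the second 5 of 40, against 15.4%. Without the first day 3 array 3 of 39 passed, against 10% of all genes, and without the second 6 of 39, against 11.3%. Nearest to the limit were Dvl3, with differences from 0.96 to 1.43 (day 10 minus day 3, mean 1.19 ± 0.25), and Wnt7a, with -1.81 to -0.89 (mean -1.35 ± 0.48). Fzd9 followed with 0.73 to 1.73, and Fzd8 with -0.69 to -0.47. The members' median difference was -0.04, beside -0.01 over all genes, and was 0.17 without the first day 3 array. The difference was above 0 for 17 members and below 0 for 22. In 5 of 39 members (12.8%) both arrays of one day lay on the other side of 0 from both arrays of the other, against 14% of all genes: Dvl3, Fzd8, Lrp6, Wnt7b and Wnt10a.

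**Figure D5:**
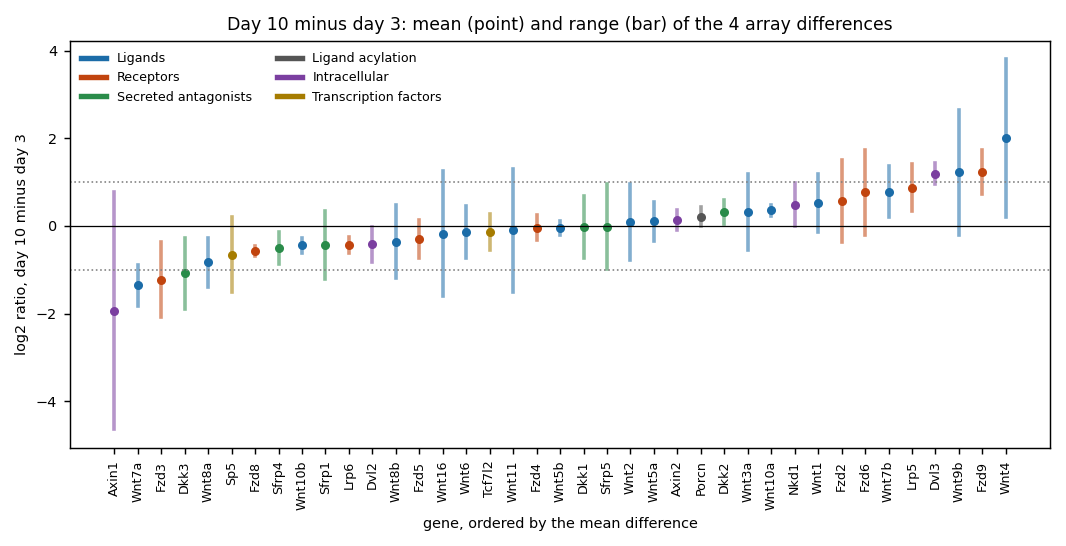
Day 10 minus day 3 for the 39 Wnt pathway genes measured on all 4 arrays, ordered by the mean (points, coloured by role), with bars over the range of the 4 differences; dotted lines mark 2-fold. No bar lies wholly beyond a dotted line, Dvl3 and Wnt7a come closest, and the longest bars belong to Axin1 and Wnt4.

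Other genes of the pathway were taken from a list of 53 co-factors, further receptors, planar polarity genes and modulators, of which 44 were on named spots. Of these, 0 of 37 were called at day 10 (3.54% of all genes), 0 of 40 at day 3 (2.8%) and 0 of 34 between the days (3.54%). At such shares a list this short would hold few calls. The list medians were -0.01, 0.15 and -0.03, beside -0.01, 0.01 and -0.01 over all genes. Frzb and Rspo1 are given as well, chosen after their values were seen. Frzb, a secreted antagonist of the Sfrp family, had 1.13 and 0.93 at day 10 and 0.24 and 0.01 at day 3. Rspo1, an R-spondin that amplifies Wnt signals at the membrane, had 0.90 and 0.97 at day 10 and 0.14 and 0.34 at day 3. Both had day 10 values above their day 3 values on every array, but how many of all genes did so was not counted. Their recovered brightness was at percentiles 94.0 and 93.5, and such high ranks do not order genes by signal.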

How the data were processed

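The deposited table holds log2 ratios of the channels, 1 value per spot and array. The base was settled from the values: of the first 5000 on the first day 3 array, 27.9% were ratios of whole numbers up to 1000 in base 2, against 0.06% in base e and 0.14% in base 10. The sources used here do not say how the authors corrected background or dyes. Spots were named through the platform's annotation, with 32544 spots under 1 symbol, 588 under several and 12996 unnamed, and 480 control spots were left out. Each array was centred on its median and spots were averaged per gene. Genes whose spots were annotated to different sequence records were averaged alike. A call needs both arrays at or beyond 1 (log2) on one side. No test was run. Every member is named. Values on each array are given by a rule for called members and for up to 2 per side and role farthest from 0, and also for Wnt1, Wnt3a, Wnt8a, Fzd4, Lrp6, Dvl1 and Axin2, chosen after their values were seen. Members, lists and the rule were chosen with earlier results of these data known, and 2 genes with matching symbols, other than those the report names as not analysed, are not reported here. Recovered brightness uses the smallest whole numbers that give a ratio, and values that are no ratio of numbers up to 10000 count as bright. Promoters come from RefSeq (GRCm38.p6). The calls and the recovery were run on simulated data as a check of the code alone. The simulated pairs were whole numbers up to 10000, so recovery from other values was not tested. Simulated noise was drawn per gene, so outlying single spots were not covered. Alternatives changed centring, scaling, limit, spot choice, brightness and arrays. The software was pandas 2.3.3 and numpy 2.4.6 under Python 3.11.15, and matplotlib 3.10.9 for plots. The number of arrays limits precision.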

Additional observations from a re-analysis of the deposited data

Results flagged for a closer look

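For 5 Wnt pathway genes both day 10 arrays lay on one side of 0 and both day 3 arrays on the other. The differences, day 10 minus day 3, were 1.19 for Dvl3, 0.78 for Wnt7b, 0.35 for Wnt10a, -0.43 for Lrp6 and -0.58 for Fzd8, and none of them was tested. Of the 39 members with values on all 4 arrays these are 12.8%, against 14% of all 12654 such genes. In Wnt7b, Wnt10a and Lrp6 some array values that set the side were within 0.02 of 0. Some duplicate spots of these genes lay on opposite sides. For Wnt7b those of the first day 3 array read 1.28 and -1.67. For Wnt10a those of the first arrays read -0.95 and 1.39 at day 10 and 0.71 and -0.74 at day 3. For Dvl3 those of the first day 10 array read 1.47 and -0.72.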

How the results depend on the processing

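No paired analysis was possible because the labels give no replicate numbers that link the days and no test was run. The count of members beyond 2-fold at day 10 (2) became 7 at a 1.5-fold limit, 0 at 4-fold, 8 with the limit on the mean alone and 0 in the upper 50% by brightness, and was 8 with either array left out. At day 3 (1) it became 2 with a common spread, 4 at 1.5-fold, 0 at 4-fold and 5 on the mean alone, and 3 to 10 with an array left out. Between days (0) it became 1 with a common spread, 3 at 1.5-fold, 8 on the mean alone and 1 when each gene kept its best-agreeing spot (Wnt7a both times), and 3 to 6 with an array left out. Limits and left-out arrays change these counts by construction. Shares of all genes were not counted for the other limits, the mean alone, the common spread, the brightness cut or the spot choices. Those counts therefore cannot be set against all genes. The spot of smallest array difference, and spots with values on all arrays, gave Fzd9, Dkk3 and Wnt10b at day 10 in place of Fzd2 and Fzd9. Fzd2 could not be called there, since no spot of it had a value on both day 10 arrays. The member median at day 3 was -0.14 in the upper 50% by brightness and -0.0018 to 0.20 with an array left out. Between days it was -0.42 and, with an array left out, -0.21 to 0.17. At day 10 (0.13) it was -0.03 in the upper 50% by brightness, 0.02 without the second array and 0.23 without the first. Counts of members with all readings on one side were 5 and 13 without centring and 5 and 8 in the upper 50%.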

Other observations

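Of 20 genes taken as direct targets or mesendoderm readouts of Wnt signalling, 0 of 16 were called at day 10 (3.54% of all genes) and 2 of 20 at day 3 (2.8% of all genes). Mesp1, a transcription factor of early mesoderm, had 1.55 on the 1 day 10 array that measured it and 2.04 and 1.89 at day 3. Sall4, a zinc finger factor of stem cells, had -0.10 and 0.33 at day 10 and -1.12 and -1.22 at day 3, and was the 1 target of 16 called between the days, at 1.29 (3.54% of all genes). Both were dim, at brightness percentiles 11.4 and 17.9. Fosl1 and Myc, given after their values were seen, had 1.46 and 0.79, and 1.17 and 0.68, on the day 10 arrays, and -0.20 and -0.43, and -0.42 and -0.11, on the day 3 arrays. The targets' median was 0.18 at day 10 and 0.12 at day 3.

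Of 9 markers of undifferentiated cells, 6 of 7 measured at day 10 and 8 of 8 at day 3 lay below 0, with medians of -0.55 and -0.62. Dppa5a was called on the negative side at day 3, with a mean of -2.71, and Fgf4, the 1 marker above 0 at day 10, was called on the positive side between the days, at 1.60. Of 12 markers of differentiated cells, 7 of 11 lay above 0 at day 10 and 3 of 10 at day 3, with medians of 0.16 and -0.19. No marker of differentiated cells was called.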
